A study of Mus musculus with 8 samples.

Results

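The Ets transcription factors were examined in the gravid mouse uterus at gestational d18.0, in cyclooxygenase-1 knockout (Cox-1 KO) mice against wild-type mice. Members were the probe sets whose symbol in the platform annotation is Elf3, Ets1, Ets2, Elk3, Elf1, Erg, Fli1, Etv5, Ehf or Gabpa. Of these 10 genes, 9 had a probe set, 24 probe sets in all, among 13119 genes with a single symbol and 28000 probe sets in the table. Erg was named by none of them and was not analysed here. The study compared 4 Cox-1 KO and 4 wild-type uteri, each on 1 Affymetrix mouse genome array. The Cox-1 KO mice lack a working Ptgs1 gene and were of a mixed C57BL/6 and Sv129 strain by the labels (C57BL/6 and 129P2 in the methods), while the wild-type mice were C57BL/6. Genotype and strain background cannot be told apart in this design. All were pregnant females, aged 6 to 16 weeks by the labels, and the Cox-1 KO mouse served as a model of late delivery. The values are the MAS5 signal, a linear intensity from the authors' scanner software.

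Ets factors share a DNA-binding domain, the Ets domain, that reads a short core of GGAA in promoters and enhancers, and the family includes both activators and repressors. Several members are switched by phosphorylation through the Ras and ERK kinases. Elf3 and Ehf belong to a group made in epithelia, Erg and Fli1 mark endothelium and blood cells, and Gabpa is made in nearly all cells. The study turned to this family because putative Ets sites recurred in the promoters of its candidate parturition genes. This raises the question whether the factors themselves differ in level in the Cox-1 KO uterus. For Elf3 and Ets2 the study reported no difference between the genotypes at d18.0, and the values below come from its arrays.

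The windows below show what an Ets core looks like upstream of 3 members, 250 bases up to the annotated start of RefSeq transcripts in build GRCm38.p6, written 5′ to 3′ on the strand of the gene. Elf3 and Ets2 are shown because the study discusses them by name, and Gabpa because it alone of the members held the longer core CCGGAA, read on the other strand. Capitals mark GGAA, or TTCC where the core lies on the other strand.
Elf3, chr1:135258473-135258722, minus strand: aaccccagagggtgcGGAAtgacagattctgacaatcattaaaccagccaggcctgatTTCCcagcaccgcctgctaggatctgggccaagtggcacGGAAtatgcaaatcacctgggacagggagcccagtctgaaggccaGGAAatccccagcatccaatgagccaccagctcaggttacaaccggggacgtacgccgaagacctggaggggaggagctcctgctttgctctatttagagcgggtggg
Ets2, chr16:95702157-95702406, plus strand: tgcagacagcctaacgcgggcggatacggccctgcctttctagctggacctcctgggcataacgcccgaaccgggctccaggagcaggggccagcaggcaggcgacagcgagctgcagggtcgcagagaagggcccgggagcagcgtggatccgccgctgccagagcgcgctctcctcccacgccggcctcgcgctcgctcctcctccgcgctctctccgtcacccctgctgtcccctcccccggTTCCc
Gabpa, chr16:84834874-84835123, plus strand: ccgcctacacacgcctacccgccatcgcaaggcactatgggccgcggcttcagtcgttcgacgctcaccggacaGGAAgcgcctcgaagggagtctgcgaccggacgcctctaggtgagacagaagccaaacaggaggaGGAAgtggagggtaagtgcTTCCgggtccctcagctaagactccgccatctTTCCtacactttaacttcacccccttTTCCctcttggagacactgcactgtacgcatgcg

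Of the members, 7 had such windows in the table, 11 in all, and these were the windows of Elf3, Ets2, Elk3, Elf1, Erg, Etv5 and Gabpa. GGAA was present on either strand in 8 of the 11 windows, against 93.4% of all 32851 windows. The longer CCGGAA was present in 1 of the 11, against 12% of all windows, and CCGGAAGT, the fuller consensus that contains both, in none of the 11, against 2.88% of all windows. Elf3 held 4 cores of GGAA, Ets2 held 1 and Gabpa held 5. Of the 8 genes to which the study assigns an Ets site, Ptgs1 included, 5 had windows here (Jchain, Coro1a, Cftr, Atp8a1 and Ptgs1), and each held GGAA in every window. Of their 6 windows, 1 held CCGGAA and none held CCGGAAGT. These matches describe the letters in the window alone.

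No Ets factor passed the adjusted threshold between the genotypes. Of the 24 probe sets, 22 passed the filter on signal (100 or more on at least 4 of the 8 arrays), and none of the 22 had a Benjamini-Hochberg adjusted p under 0.05 with limma over the 26444 probe sets kept. The smallest adjusted p of the 22 was 0.541. Over all kept probe sets, 0.0113% passed. At an unadjusted p under 0.05 there was 1 Ets probe set of 22, or 4.55%, against 8.81% of all kept probe sets, and the test of the methods had 2 of 22 with an unadjusted p of 0.05 or less, against 6.19% of all kept probe sets, and none of the 22 after adjustment. None passed the thresholds of the methods, which also ask for a 1.5-fold ratio of mean signals and were met by 0.862% of all kept probe sets. Of the 22, 8 had a positive and 14 a negative log2 fold change (Cox-1 KO minus wild-type), with a median of -0.06, beside a median of -0.03 over all kept probe sets. Ratios of mean signals ran between 0.811 and 1.29.

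The precision of these comparisons bounds the size of a difference. For 20 of the 22 Ets probe sets the 95% interval of the log2 fold change lay within 1.5-fold in both directions, which held for 71.1% of all kept probe sets. The exceptions were a dim probe set of Ets1, whose interval reached 0.81, and the brightest probe set of Etv5, whose interval reached -0.65. Standard errors of the Ets probe sets lay between 0.0604 and 0.208, with a median of 0.108, beside 0.127 over all kept probe sets.

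**Figure D1:**
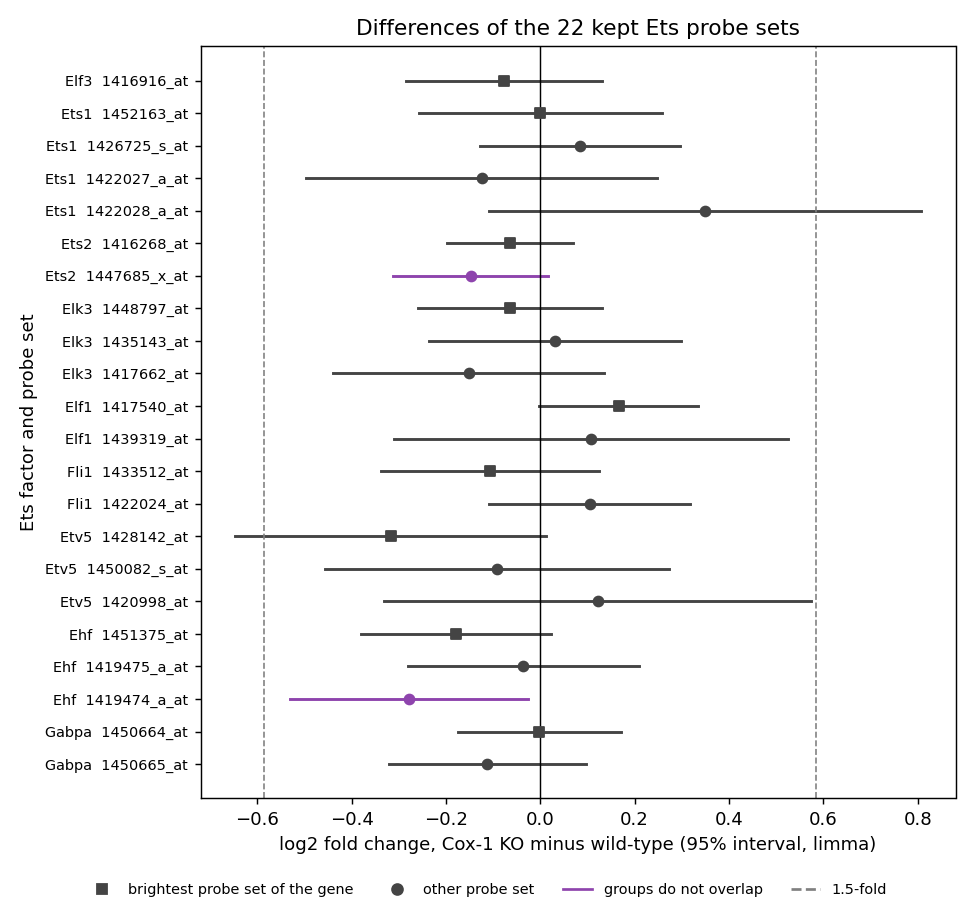
log2 fold change (Cox-1 KO minus wild-type, horizontal axis) of the 22 Ets probe sets kept by the filter, with the 95% interval from limma (n = 4 per group). Squares are the brightest probe set of a gene, purple marks groups that do not overlap, and dashed lines stand at 1.5-fold. Of the intervals, 20 lie between the dashed lines.

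Facts of the whole series bear on every value below. Ptgs1, on the probe set to which the study assigns it, had signals of 88, 122, 76 and 136 in Cox-1 KO uteri, against 7048, 10610, 10756 and 10508 in wild-type uteri (limma adjusted p = 5.66e-08). The 10 listed uterine and smooth muscle genes were all kept, and their summed signal was 247960 to 267631 in Cox-1 KO and 245785 to 267214 in wild-type uteri. Transcripts of yolk sac and fetal liver stood high on 4 arrays. The fetal globins listed with them had no kept probe set, so fetal red cells were not measured. Apoa1, an apolipoprotein of yolk sac and liver, had signals of 73950, 631, 65189 and 56615 on Cox-1 KO replicates 1 to 4, against 183, 481, 505 and 55059 on wild-type replicates 1 to 4. The fetuses and their membranes had been removed before RNA was isolated. Of the 17 measured genes of that list all had positive log2 fold changes. An unadjusted p under 0.05 was found for 12, against 8.81% of all kept probe sets, and none passed the adjusted threshold. The smallest adjusted p, 0.421, was that of Rbp4, a retinol carrier that was high on all arrays, at 34145 to 39535 in Cox-1 KO and 26827 to 32440 in wild-type uteri, and the next was that of Ambp (adjusted p = 0.435). The summed signals of the other 16 genes were 449222, 7050, 352993 and 305326 on Cox-1 KO replicates 1 to 4, against 4006, 4963, 5561 and 283848 on wild-type replicates 1 to 4. For Elf3, Ehf, Ets1, Elf1 and Etv5 a fit that adds the level of these transcripts as a covariate is also given. That fit was added once the data had been seen. In bulk RNA, fewer cells of a type and less RNA per cell cannot be told apart.

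Elf3 and Ehf are the epithelial members. Elf3 is an epithelial Ets factor needed for the lining of the intestine. Its single probe set (1416916_at) had signals of 4426, 3643, 4119 and 3303 in Cox-1 KO uteri, against 3676, 4290, 4269 and 4025 in wild-type uteri. Both the highest and the lowest of the 8 values were Cox-1 KO uteri, and the groups overlapped. Elf3 averaged 3873 ± 498 in Cox-1 KO and 4065 ± 286 in wild-type uteri (SD, n = 4 each), and its log2 fold change came to -0.08, with a standard error of 0.0943 and a limma adjusted p of 0.834. The interval ran between 0.821-fold and 1.10-fold. In the fit that adds the yolk sac level, Elf3 came to -0.12.

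Ehf, a second epithelial Ets factor close in sequence to Elf3, was the member with the lowest unadjusted p. Its probe set 1419474_a_at had signals of 562, 613, 653 and 591 in Cox-1 KO uteri, against 656, 877, 724 and 691 in wild-type uteri. All 4 Cox-1 KO uteri lay below all 4 wild-type uteri, by 3 signal units at the closest, between Cox-1 KO replicate 3 and wild-type replicate 1. The log2 fold change was -0.28 (standard error 0.115), the exact two-sided permutation test over arrays gave p = 0.0286, which is the smallest p that 4 arrays against 4 allow, and the limma adjusted p was 0.541. The brightest probe set of Ehf (1451375_at) had 1792, 2223, 2134 and 1852 in Cox-1 KO uteri, against 2030, 2225, 2396 and 2387 in wild-type uteri. Here 2 Cox-1 KO uteri lay below the wild-type range and 2 within it, and the log2 fold change was -0.18, with a standard error of 0.0919 and an adjusted p of 0.60. The third probe set (1419475_a_at) had 1563, 2035, 1558 and 1561 in Cox-1 KO uteri, against 1491, 1710, 1938 and 1729 in wild-type uteri. On it Cox-1 KO replicate 2 was the highest of all 8 arrays, and the log2 fold change was -0.04 (adjusted p = 0.945). All 3 probe sets of Ehf thus had negative values, of unequal size.

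The unadjusted p of 1419474_a_at, 0.0333 as fitted, was no longer under 0.05 without Cox-1 KO replicate 1, 2 or 4, and likewise without wild-type replicate 2 or 3. It was also not under 0.05 in the fit that adds the yolk sac level, where the log2 fold changes of Ehf were -0.23 on 1419474_a_at, -0.15 on 1451375_at and 0.07 on 1419475_a_at. Markers of epithelium were followed beside Elf3 and Ehf. Of 21 measured epithelial genes 15 had positive and 6 negative log2 fold changes with a median of 0.06, none passed the adjusted threshold, and their summed signal was 184965 to 218888 in Cox-1 KO and 162952 to 194723 in wild-type uteri. Krt18, a keratin of simple epithelia, was the only one of the 21 with an unadjusted p under 0.05 (log2 fold change 0.25, limma adjusted p = 0.538), against 8.81% of all kept probe sets. The part of epithelial content in the values of Elf3 and Ehf was not tested. In the order of coding genes Ehf stands directly beside Elf5, another epithelial Ets gene, on chromosome 2, with 552 coding genes between it and Ptgs1. Elf5 had a log2 fold change of 0.15 (adjusted p = 0.835).

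**Figure D2:**
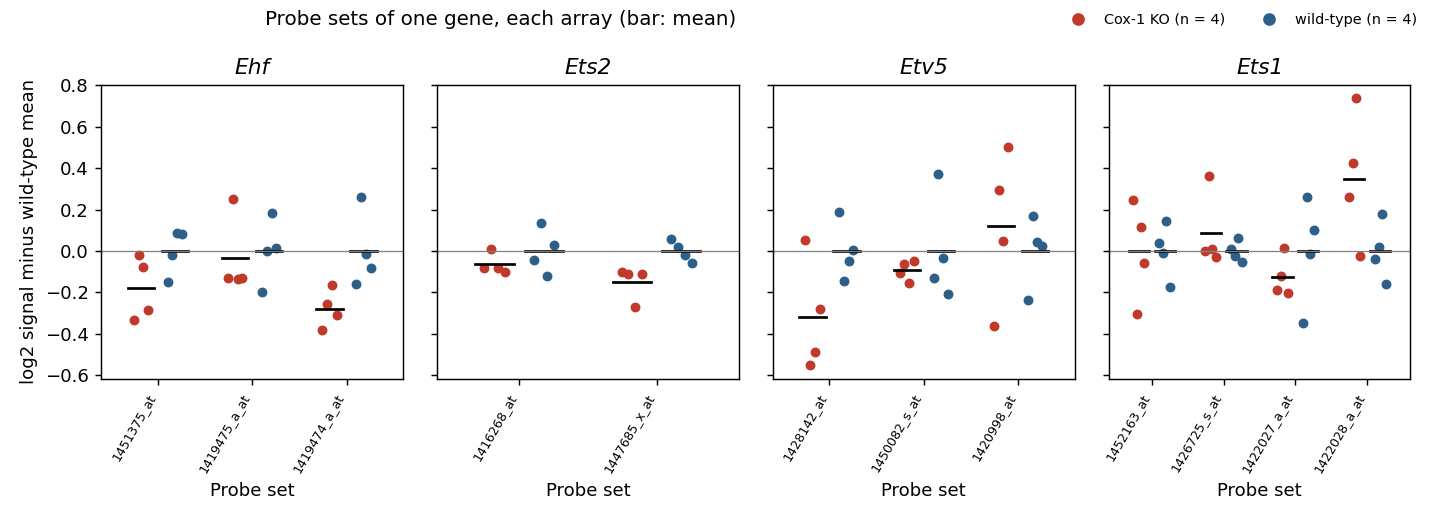
log2 signal minus the wild-type mean (vertical axis) on each array for each kept probe set of Ehf, Ets2, Etv5 and Ets1. Points are single uteri (Cox-1 KO left, wild-type right, n = 4 each) and bars are means. Only Ehf 1419474_a_at and Ets2 1447685_x_at, of those shown, have no overlap between the groups.

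Ets2 and Ets1 are the founding members of the family and are both phosphorylated downstream of Ras. Ets2 is needed in the mouse for the trophoblast and through it for the placenta. The brightest probe set of Ets2 (1416268_at) had signals of 12944, 13777, 12931 and 12763 in Cox-1 KO uteri, against 13294, 15052, 12594 and 13966 in wild-type uteri. The groups overlapped, and wild-type uteri held both the highest and the lowest value. Ets2 averaged 13104 ± 456 in Cox-1 KO and 13726 ± 1046 in wild-type uteri (SD, n = 4 each), and its log2 fold change came to -0.06, with a standard error of 0.0604 and a limma adjusted p of 0.776. The interval of 0.872-fold to 1.05-fold was the tightest of all Ets probe sets. The probe set 1447685_x_at, of a class that can also bind related sequences, had 1478, 1468, 1314 and 1470 in Cox-1 KO uteri, against 1647, 1607, 1564 and 1524 in wild-type uteri. On it all Cox-1 KO uteri lay below all wild-type uteri, at -0.15 on the log2 scale (standard error 0.0745, exact permutation p = 0.0286, limma adjusted p = 0.595). The third probe set of Ets2 was below the filter, at 6 to 106 in Cox-1 KO and 31 to 69 in wild-type uteri. Groups that did not overlap were thus seen for 2 of the 22 Ets probe sets, both lower, beside 4.41% of all kept probe sets in either direction.

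Ets1 is a factor of lymphocytes and endothelium, and its probe sets differed in sign. The brightest (1452163_at) had 2410, 1650, 2206 and 1956 in Cox-1 KO uteri, against 2088, 2019, 2252 and 1806 in wild-type uteri. Cox-1 KO uteri had the highest and the lowest value, their means were close, at 2056 ± 328 in Cox-1 KO and 2041 ± 185 in wild-type uteri (SD, n = 4 each), and the log2 fold change was 0.0003 (standard error 0.117). The second (1426725_s_at) had 1508, 1940, 1516 and 1476 in Cox-1 KO uteri, against 1519, 1484, 1577 and 1456 in wild-type uteri, where Cox-1 KO replicate 2 alone stood above the rest and the log2 fold change was 0.08. On 1452163_at that same array was the lowest, so that the 2 bright probe sets of Ets1 moved in opposite directions on it. The dim probe set 1422028_a_at had 202, 226, 281 and 166 in Cox-1 KO uteri, against 164, 171, 191 and 151 in wild-type uteri. Of the Cox-1 KO uteri, 3 lay above the wild-type range and 1 within it, with a log2 fold change of 0.35, the largest of all Ets probe sets, and a standard error of 0.208 (limma adjusted p = 0.645). Its unadjusted p was under 0.05 without Cox-1 KO replicate 4. The other dim probe set (1422027_a_at) went the other way, with a log2 fold change of -0.12 and signals of 237 to 276 in Cox-1 KO and 215 to 327 in wild-type uteri. In the fit that adds the yolk sac level, Ets1 came to -0.06 on 1452163_at, 0.21 on 1426725_s_at, 0.44 on 1422028_a_at and -0.17 on 1422027_a_at. Without the 4 arrays high in these transcripts, its bright probe sets came to -0.36 (1452163_at) and 0.35 (1426725_s_at). That setting leaves 1 Cox-1 KO uterus, replicate 2, the array on which these probe sets moved in opposite directions.

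Fli1 is a factor of endothelium, megakaryocytes and other blood cells and lies directly beside Ets1 in the order of coding genes. Its brighter probe set (1433512_at) had 1228, 1257, 1108 and 1305 in Cox-1 KO uteri, against 1529, 1122, 1383 and 1263 in wild-type uteri, which overlapped. Its log2 fold change was -0.11 (standard error 0.105, limma adjusted p = 0.789). The dimmer one (1422024_at) had 630, 693, 697 and 754 in Cox-1 KO uteri, against 678, 624, 651 and 623 in wild-type uteri, with 3 Cox-1 KO uteri above the wild-type range and a value of 0.10 on the log2 scale (adjusted p = 0.774). The 2 probe sets of Fli1 differed in sign, and both intervals included 0.

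Elf1, a factor of lymphoid and other blood cells, had the most positive value among the brightest probe sets. On 1417540_at it had 3327, 2718, 2890 and 2996 in Cox-1 KO uteri, against 2765, 2455, 2712 and 2685 in wild-type uteri. Of the Cox-1 KO uteri, 3 lay above the wild-type range and Cox-1 KO replicate 2 lay within it. Elf1 averaged 2983 ± 256 in Cox-1 KO and 2654 ± 137 in wild-type uteri (SD, n = 4 each), at 0.17 on the log2 scale (standard error 0.077, exact permutation p = 0.0571, limma adjusted p = 0.571). The Cox-1 KO uteri above the range, replicates 1, 3 and 4, were also the Cox-1 KO uteri high in yolk sac transcripts. Wild-type replicate 4, also high in them, had 2685 for Elf1. The part of these transcripts in the value of Elf1 was not tested. In the fit that adds the yolk sac level, Elf1 came to 0.10, and without the 4 arrays high in these transcripts, which leaves 1 Cox-1 KO uterus, to 0.04. Without Cox-1 KO replicate 2 the unadjusted p of Elf1 was under 0.05 with an adjusted p of 0.344 by limma. The dim probe set of Elf1 (1439319_at) had 254 to 298 in Cox-1 KO and 184 to 310 in wild-type uteri. It came to 0.11 on the log2 scale (adjusted p = 0.891), and to 0.16 in the fit that adds the yolk sac level.

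Markers of the cells that make Ets1, Fli1 and Elf1 were followed beside them. Of 22 endothelial genes 8 had positive and 14 negative log2 fold changes, with a median of -0.02 and summed signals of 40688 to 44037 in Cox-1 KO and 41090 to 44947 in wild-type uteri. None passed the adjusted threshold, and Sox18 and Pecam1 had the smallest p, with log2 fold changes of -0.35 and -0.29 (limma adjusted p = 0.421 and 0.423). Of 19 leukocyte genes 16 had positive and 3 negative values, with a median of 0.12. Their summed signals, in which bright genes weigh most, did not overlap, at 77560 to 88744 in Cox-1 KO and 74299 to 76834 in wild-type uteri. Mean log2 levels, in which each gene counts equally, did overlap. These were -0.07, 0.143, 0.19 and -0.008 on Cox-1 KO replicates 1 to 4, against -0.013, -0.065, -0.054 and -0.123 on wild-type replicates 1 to 4. None of the 19 leukocyte genes passed either, and Arhgdib and Lcp1 had the smallest p (log2 fold changes 0.26 and 0.52, limma adjusted p = 0.351 and 0.48). Of 12 measured genes of natural killer and T cells 10 had positive and 2 negative values, with a median of 0.44. The negative ones were Klrd1 (-0.03) and Nkg7 (-0.13). A limma unadjusted p under 0.05 was found for 9 of the 12, most of them granzymes, against 8.81% of all kept probe sets. For each of these 9 the groups overlapped, and the exact permutation p was 0.0571 to 0.143. Granzymes are close in sequence, and Gzme was read on a probe set of a class that can also bind related sequences. The smallest p were those of the granzymes Gzme (0.56, limma adjusted p = 0.309) and Gzmg (0.39, adjusted p = 0.423). The part of these cells in the values of Ets1, Fli1 and Elf1 was not tested.

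**Figure D3:**
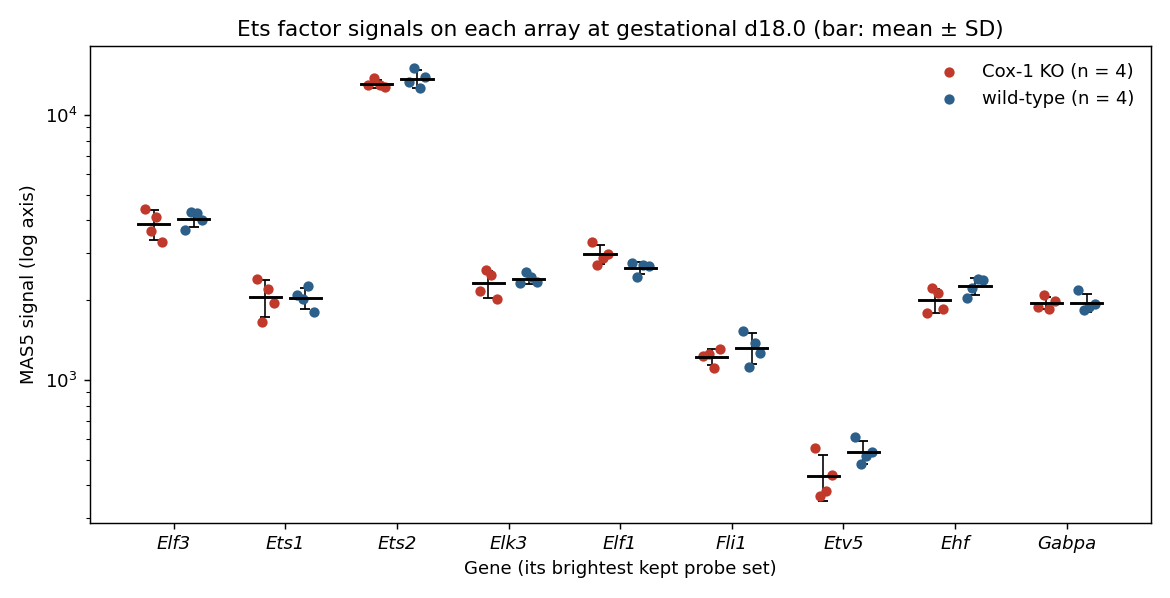
MAS5 signal (log axis) of the brightest kept probe set of each of 9 Ets factors on each array. Points are single uteri (Cox-1 KO left, wild-type right, n = 4 each), long bars are means and whiskers the SD. The groups overlap for all 9 genes, for example Elf3 at 3303 to 4426 in Cox-1 KO and 3676 to 4290 in wild-type uteri.

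Elk3 and Etv5 are effectors of growth factor signalling. Elk3 is a ternary complex factor that sits with serum response factor on early gene promoters and represses them until ERK phosphorylates it. Its brightest probe set (1448797_at) had 2163, 2594, 2482 and 2018 in Cox-1 KO uteri, against 2313, 2554, 2440 and 2332 in wild-type uteri, with the wild-type values inside the Cox-1 KO range. The log2 fold change was -0.06, with a standard error of 0.0887 and a limma adjusted p of 0.855. The other kept probe sets of Elk3 gave 0.03 (1435143_at) and -0.15 (1417662_at), and the fourth was below the filter, at 26 to 67 in Cox-1 KO and 36 to 87 in wild-type uteri. Among 11 measured serum response factor partners and early genes 9 had positive and 2 negative values, with a median of 0.16, and none passed the adjusted threshold. The 2 of 11 with an unadjusted p under 0.05 were Egr3, an early gene, and Mrtfb, a coactivator of serum response factor. Of all kept probe sets, 8.81% had such a p and 4.41% had groups that did not overlap. Egr3 had 139, 139, 158 and 252 in Cox-1 KO uteri, against 112, 116, 49 and 71 in wild-type uteri, without overlap and at low signal (log2 fold change 1.02, standard error 0.348, limma adjusted p = 0.526). Mrtfb had 4068, 4021, 4187 and 3727 in Cox-1 KO uteri, against 3418, 3680, 3713 and 3481 in wild-type uteri, again without overlap (log2 fold change 0.16, adjusted p = 0.538).

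Etv5, a factor induced by fibroblast growth factors, had low signals, and its probe sets differed in sign. The brightest (1428142_at) had 553, 364, 381 and 439 in Cox-1 KO uteri, against 607, 483, 516 and 536 in wild-type uteri. Of the Cox-1 KO uteri, 3 lay below the wild-type range and Cox-1 KO replicate 1 lay within it. Etv5 averaged 434 ± 85.4 in Cox-1 KO and 536 ± 52.4 in wild-type uteri (SD, n = 4 each), at -0.32 on the log2 scale (standard error 0.15, exact permutation p = 0.114, limma adjusted p = 0.574). Without Cox-1 KO replicate 1 its unadjusted p was under 0.05, and likewise in the fit that adds the yolk sac level, where Etv5 came to -0.42 (adjusted p = 0.927). The other probe sets of Etv5 gave -0.09 (1450082_s_at, 246 to 265 in Cox-1 KO and 237 to 354 in wild-type uteri) and 0.12 (1420998_at, 185 to 337 in Cox-1 KO and 202 to 267 in wild-type uteri). In the fit that adds the yolk sac level they came to 0.0056 (1450082_s_at) and 0.2 (1420998_at). Of 11 genes of the FGF and ERK feedback loop 7 had positive and 4 negative values, with a median of 0.10, and none had an unadjusted p under 0.05. The smallest p were those of Dusp4, an ERK phosphatase (log2 fold change 0.69, limma adjusted p = 0.578), and Fgfr2, a receptor of fibroblast growth factors (-0.18, adjusted p = 0.583).

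Gabpa, the DNA-binding subunit of GABP, which drives genes of mitochondria and of basic metabolism, had overlapping groups on both probe sets. The brighter one (1450664_at) had 1879, 2087, 1856 and 1984 in Cox-1 KO uteri, against 2175, 1837, 1876 and 1938 in wild-type uteri, with averages of 1952 ± 106 in Cox-1 KO and 1956 ± 151 in wild-type uteri (SD, n = 4 each). The log2 fold change of Gabpa was -0.0021 (standard error 0.0785), with an interval of 0.886-fold to 1.13-fold. The dimmer probe set (1450665_at) had 964, 769, 835 and 840 in Cox-1 KO uteri, against 918, 955, 870 and 931 in wild-type uteri, where 3 Cox-1 KO uteri lay below the wild-type range and Cox-1 KO replicate 1 was the highest of all (log2 fold change -0.11, limma adjusted p = 0.751). Of 13 measured partners and targets of GABP 7 had positive and 6 negative values, with a median of 0.0025. None had an unadjusted p under 0.05, and the smallest were those of Tfb2m, a mitochondrial transcription factor (log2 fold change -0.17, limma adjusted p = 0.601), and Polrmt, the mitochondrial RNA polymerase (-0.16, adjusted p = 0.635).

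The rest of the family was followed in the same fit. Of 16 other Ets genes listed, 10 were measured, 7 with positive and 3 with negative log2 fold changes and a median of 0.05, and none had an unadjusted p under 0.05. Elk4 (0.07), Elf2 (0.01), Etv3 (0.10), Etv6 (-0.07), Erf (0.14), Elk1 (-0.12), Elf4 (0.03) and Elf5 (0.15) had log2 fold changes within the range of the members. Spi1, the master factor of macrophages and other myeloid cells, had 491, 715, 715 and 617 in Cox-1 KO uteri, against 528, 764, 543 and 593 in wild-type uteri, a log2 fold change of 0.06 (limma adjusted p = 0.928). Spib, a factor of B cells and plasmacytoid dendritic cells, had the largest value of the 10, -0.50, with a standard error of 0.451 and signals around the filter, 33, 143, 69 and 127 in Cox-1 KO and 121, 89, 120 and 129 in wild-type uteri.

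Genes to which the study assigns a putative Ets site are given for scale. Apart from Ptgs1, 7 of them were measured, with 3 positive and 4 negative log2 fold changes and a median of -0.17. Jchain (2.86) and Arg1 (0.83) had positive and Tnni2 (-0.74) and Gem (-0.58) negative values with an unadjusted p under 0.05. None of the 4 passed the adjusted threshold, and Jchain came closest (limma adjusted p = 0.0517). By Northern blot at d18.0 the study also reported more Jchain (its IgJ) and Arg1 and less Tnni2 in Cox-1 KO uteri. Coro1a (0.04), Cftr (-0.17) and Atp8a1 (-0.36) did not have an unadjusted p under 0.05 on their brightest probe sets. The study chose most of these genes on these samples, so their array values are not independent evidence. A test of the difference between these genes and the Ets factors was not run.

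Variation shared among Ets factors was examined across the 8 uteri. Pearson and Spearman correlations of log2 signal were computed for the 36 pairs of the 9 measured members and for each member with 4 marker lists, 72 relations in all, with permutation p-values over all pairings of arrays. None had an adjusted p under 0.05 by either measure (smallest 0.523 for Pearson and 0.521 for Spearman), and 6 had an unadjusted p under 0.05 by Pearson and 2 by Spearman. Among the lists was that of yolk sac transcripts, on which the arrays fall into separate clusters, so no pooled value is given for it. The pair with the smallest p was Elf1 and Ehf, with r = -0.794 (permutation p = 0.0151, adjusted p = 0.523) and rho = -0.881 (permutation p = 0.00724, adjusted p = 0.521) over 8 uteri, and r = -0.856 without the 2 uteri farthest from the median of Elf1. Within the genotypes r was -0.905 over the 4 Cox-1 KO and -0.105 over the 4 wild-type uteri, too few for a test of either. The epithelial pair Elf3 and Ehf had r = 0.265 (permutation p = 0.523, adjusted p = 0.876) and rho = 0.119 (permutation p = 0.793, adjusted p = 0.948), and r = -0.103 without the 2 uteri farthest from the median of Elf3. Within the genotypes r of that pair was -0.122 in Cox-1 KO and 0.731 in wild-type uteri. The neighbours Ets1 and Fli1 had r = -0.0063 (permutation p = 0.988) and rho = -0.0714 (permutation p = 0.882), both with adjusted p-values of 0.948 or more, r = 0.0546 without the 2 farthest uteri, and r = -0.452 within Cox-1 KO and 0.415 within wild-type uteri.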

How the data were processed

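Uterine RNA of 4 Cox-1 KO and 4 wild-type mice at d18.0 was hybridized to 1 array per mouse. The deposited signal intensity is the MAS5 value that the authors computed, with arrays scaled to 1000. The deposited table holds linear values in whole numbers for 28000 probe sets, without detection calls. Fetuses, fetal membranes and placentas had been removed per the methods.

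Tests were run in limma 3.58.1 under R 4.3.3, and sequences were searched in Python 3.11.15. The 60 array controls were left out, signals under 1 were set to 1 (1 value) and log2 was taken. The filter required 100 signal units on 4 or more arrays. Array medians lay between 731 and 757, and arrays correlated at 0.944 to 0.982. limma with a variance trend compared the genotypes, with Benjamini-Hochberg adjustment over all 26444 kept probe sets. The test of the methods, on log signal with unequal variances and a ratio of 1.5 or more, was run beside it. Permutation tests were two-sided over all 70 assignments of the 8 arrays. Symbols came from the platform annotation, updated through RefSeq, with 23567 probe sets naming 1 gene, 653 several and 3720 none. Ptgs1 was named through the study's additional file. A gene was represented by its brightest kept probe set. The number of arrays limits the precision.

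The members and gene lists were chosen with earlier results of these data known. Named genes are all members with every probe set, every other measured Ets gene, up to 2 genes with the smallest p of each list, and for Elf3 and Ets2 the 3 genes with the highest r. Apoa1, Klrd1, Nkg7, Tpbpa and all genes with a putative Ets site were named after their values were seen. Alternatives were a floor of 100, an added constant of 32, no filter, a stricter one at 200, array weights, robust variance, no variance trend, median centring, quantile normalization, a replicate block and each array left out. The placenta and decidua lists had 5 of 14 and 10 of 10 genes measured, with median log2 fold changes of 0.24 and 0.11. Of the 5 placental genes 3 had positive and 2 negative values. Tpbpa, a trophoblast gene, had 13871 to 17387 in Cox-1 KO and 5604 to 18147 in wild-type uteri. Psg23 had the smallest p (log2 fold change -0.63, limma adjusted p = 0.526). The part of placental content in the values of the Ets factors was not tested.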

Additional observations from a re-analysis of the deposited data

Results flagged for a closer look

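Signals or list levels of 8 of 90 groups of 4 uteri held a value far from the others of its group by Dixon's criterion. Chance gives about 1 such group in 20. Of the Ets members, Ets1 on 1426725_s_at had 1940 on Cox-1 KO replicate 2, against 1476 to 1516 on the other Cox-1 KO uteri. Ehf on 1419475_a_at had 2035 on the same array, against 1558 to 1563. Ets2 on 1447685_x_at had 1314 on Cox-1 KO replicate 3, against 1468 to 1478. Among the other Ets genes, Erf had 703 on wild-type replicate 4, against 778 to 789 on the other wild-type uteri.

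For lists, the mean log2 level of the measured genes was taken relative to all arrays. The level of the FGF and ERK feedback genes was -0.17 on Cox-1 KO replicate 3, against 0.10 to 0.14 on the other Cox-1 KO uteri, and that of the serum response factor and early genes was 0.0393 on that array, against 0.14 to 0.16. Yolk sac and fetal liver transcripts were at -2.23 on Cox-1 KO replicate 2, against 2.57 to 3.29 on the other Cox-1 KO uteri. They were at 2.47 on wild-type replicate 4, against -3.13 to -2.87 on the other wild-type uteri. Of the probe sets of Ets1 and Ehf, only 1426725_s_at and 1419475_a_at were flagged on Cox-1 KO replicate 2. That array was thus also the Cox-1 KO array without high yolk sac transcripts, and the relation between these was not tested. The brightest probe set of Ets1 (1452163_at) had its lowest value of all arrays there, 1650. Ehf on 1451375_at had 2223 there, against 1792 to 2134 on the other Cox-1 KO uteri. On 1419474_a_at it had 613, against 562 to 653.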

How the results depend on the processing

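No Ets probe set passed the adjusted threshold under any alternative that was run, and the smallest adjusted p of a brightest probe set was 0.344 (Elf1, without Cox-1 KO replicate 2). Of 202 alternative values of the 9 genes, 179 kept their sign. The count of Ets probe sets with an unadjusted p under 0.05, 1 as reported, was 2 with median centring (8.5% of all probe sets there), 3 with array weights (9.24%), 3 with the replicate block (7.91%) and 0 to 2 with 1 array left out (6.46% to 11.5% of all; 0 without wild-type replicate 2 or 3, and 2 without Cox-1 KO replicate 2 or wild-type replicate 1). The added probe sets were those of Elf1 with median centring, and of Elf1 and Etv5 with array weights and with the block. It was 3 without the 4 arrays high in yolk sac transcripts (3.82% of all), a setting added after seeing the data that leaves 1 Cox-1 KO array, whose spread is assumed to be that of the wild-type arrays. The number of all probe sets past the adjusted threshold, 3 as reported, was 12 with a floor of 100, 10 with log2(signal + 32), 11 with median centring, 6 with robust variance, 18 with array weights, 22 at an adjusted p under 0.1, 6 without the 4 arrays high in yolk sac transcripts and 2 to 25 with 1 array left out (9 without Cox-1 KO replicate 2 or 4, 25 when wild-type replicate 1 was dropped).

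Signs turned in 23 values. Gabpa was at 0.0098 with quantile normalization, 0.0095 with median centring, 0.0098 with array weights, 0.0452 with yolk sac transcripts as a covariate and 0.0928 without the 4 arrays high in them. Ets1 was at -0.0026 with array weights, -0.0559 with the covariate, -0.36 without those 4 arrays and -0.124 on 1422027_a_at. Elk3 was at 0.0195 with the covariate, 0.092 without those arrays and 0.0313 on 1435143_at. Without those arrays Ets2 was at 0.0178 and Ehf at 0.0072. Fli1 was at 0.105 on 1422024_at and Etv5 at 0.121 on 1420998_at. With 1 array left out the ranges were -0.143 to -0.00269 for Elf3, -0.081 to 0.101 for Ets1, -0.105 to -0.0191 for Ets2, -0.122 to -0.00117 for Elk3, 0.112 to 0.209 for Elf1, -0.183 to -0.034 for Fli1, -0.44 to -0.239 for Etv5, -0.231 to -0.128 for Ehf and -0.035 to 0.0498 for Gabpa. The causes were not tested. Whether same-numbered arrays share more than a number was not settled. The methods state that samples were processed in balanced groups but do not name them. Deviations of same-numbered arrays from the group means correlated at -0.254 to 0.219, and 1 of 4 Cox-1 KO arrays was closest to its own number. Dim probe sets, 5 of the 22, limit what can be said of Ets1, Elf1 and Etv5.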

Other observations

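The genes whose log2 signal followed Elf3 most closely over the 8 uteri, of 12661 genes ranked, were Nr1d1, a nuclear receptor of the circadian clock (r = 0.966), Psmd7, a subunit of the proteasome (r = 0.96), and Ctnnd1, the p120 catenin of cell junctions (r = 0.953). For Ets2 they were Tnpo2, a nuclear import receptor (r = 0.963), Smad2, a mediator of TGF-beta signals (r = 0.962), and Ogfod3 (r = 0.951). These are the highest of many values over 8 points that share arrays and scaling, so they are given as a description without a test.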
